A study of Mus musculus with 20 samples.

Results

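Mid-pachytene spermatocytes were compared with leptotene-zygotene spermatocytes, 2 neighbouring windows of meiotic prophase in the adult mouse testis. The members were chosen by their titles: 2 arrays of the sorted mid-pachytene fraction and 3 of the sorted leptotene-zygotene fraction, 5 of the 20 arrays of the series. The cells came from C57BL/6 x DBA/2J F1 males of 10 to 16 weeks, were stained with the DNA dye Hoechst and sorted by flow cytometry, and each RNA sample pooled several sorts. No mutation or treatment was involved, and the leptotene-zygotene fraction is a mixture of both stages. The arrays were Affymetrix MOE430 version 2 chips, on which each probe set is a group of short probes against the 3' part of a transcript. The values are log2 signals after GC-RMA, a background correction and normalization that the authors applied to all arrays.

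In leptonema and zygonema the chromosomes are broken by a programmed nuclease, the breaks search for homologous partners, and the axes of the homologues come together. In pachynema the homologues are fully synapsed, crossovers mature, the X and Y chromosomes are silenced, and transcription from the autosomes is high. A spermatocyte transcribes many genes of the later sperm, such as those of the tail axoneme and the acrosome, well before the organelles appear. Many of these messengers are stored and translated only in spermatids.

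A gene was tested where its probe set reached a log2 signal of 5 on at least 2 of the 5 arrays, and changes are given as mid-pachytene minus leptotene-zygotene on the log2 scale, with the standard error and the adjusted p of limma (two-sided, Benjamini-Hochberg over 18829 probe sets, threshold 0.05). "Rose" and "fell" are used for genes past that threshold. Where a gene with a call read under 5 on some array, its change with such values raised to 5 is given as well, as the floored change. With 1 probe set per gene, 10193 of 17400 autosomal genes were tested, and the other 7207 lay under the filter. Of those tested, 19.1% were higher in mid-pachytene cells (1945 genes) and 19.4% were lower (1974 genes). The counts of rises and falls below are to be read against these shares. The median change over the autosomal genes was -0.18. On 6739 genes (66.1%) the arrays of the fractions did not overlap. Rises were larger than falls: 883 of the rises and 342 of the falls amounted to 2 or more on the log2 scale. Among the tested genes, 171 were at 5 or more on both mid-pachytene arrays and under 5 on all leptotene-zygotene arrays. Another 201 were under 5 on both mid-pachytene arrays and at 5 or more on all leptotene-zygotene arrays. Such genes passed the filter through 1 fraction alone, and the counts rest on unlike numbers of arrays.

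The markers of each label were present in their own fraction, but only some differed between the fractions. The pachytene markers read 8.56 or more on both mid-pachytene arrays. The leptotene-zygotene markers that were tested read 6.18 or more on the leptotene-zygotene arrays, and Prdm9 lay under the filter. Of the 13 pachytene markers 9 were higher in mid-pachytene cells (3 without mid-pachytene replicate 2), and of the 9 leptotene-zygotene markers tested 3 were lower there (Dmc1, Mei1 and Rec114) and 0 higher. Array pairs within a fraction correlated at 0.976 (mid-pachytene) and at 0.977 to 0.982 (leptotene-zygotene) over all probe sets. Mid-pachytene replicate 1 was closer to the leptotene-zygotene arrays (0.953 to 0.966) than replicate 2 was (0.918 to 0.945). Among markers of somatic testis cells, 3 macrophage, 7 Sertoli, 2 Leydig, 5 peritubular myoid and 2 endothelial genes were tested, and none passed. The 7 Sertoli genes all had changes under 0 (-1.12 to -0.31), as had the Leydig and endothelial genes. The 5 myoid genes all had changes above 0 (0.27 to 1.00), and the macrophage genes lay on both sides. Of the 15 macrophage genes 12 lay under the filter, and none of the 3 red blood cell genes reached it. Some tested genes read high in both fractions, such as the Sertoli marker Clu (11.20 to 12.61) and the myoid marker Acta2 (8.40 to 10.49). The Sertoli markers Sox9, Gata1, Amh, Fshr and Rhox5 and the myoid markers Cnn1 and Des lay under the filter. The source of these transcripts was not tested. Of the 11 round spermatid markers, all tested, 4 were higher in mid-pachytene cells (Dkkl1, Izumo1, Acrv1 and Catsper3) and 0 lower, and their mean log2 level was 10.85 and 11.64 on the mid-pachytene arrays, against 9.63, 9.42 and 9.97 on the leptotene-zygotene arrays. None of the 11 was under 5 on any of these arrays. The number higher was 0 without mid-pachytene replicate 2 (2 at an unadjusted p under 0.05) and 2 without leptotene-zygotene replicate 1 or 2. The median signal of the 5 arrays was 11.3 to 11.7 on the linear scale, 38.4% to 39.8% of their probe sets were at a log2 signal of 5 or more, and the precision is limited by their number. The p-values measure only the spread between arrays of the same fraction. That spread was estimated over all fractions of the series, so it is not the spread of these 5 arrays alone. In such bulk RNA, fewer cells of a type and less RNA per cell cannot be told apart. Without mid-pachytene replicate 2 the test called 1323 probe sets higher and 946 lower, against 2992 and 3571 with it. Rec114, Dkkl1, Izumo1, Acrv1 and Catsper3 did not pass without mid-pachytene replicate 2. Rec114, Acrv1 and Catsper3 did not pass without 1 or more of the other 4 arrays.

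**Figure D1:**
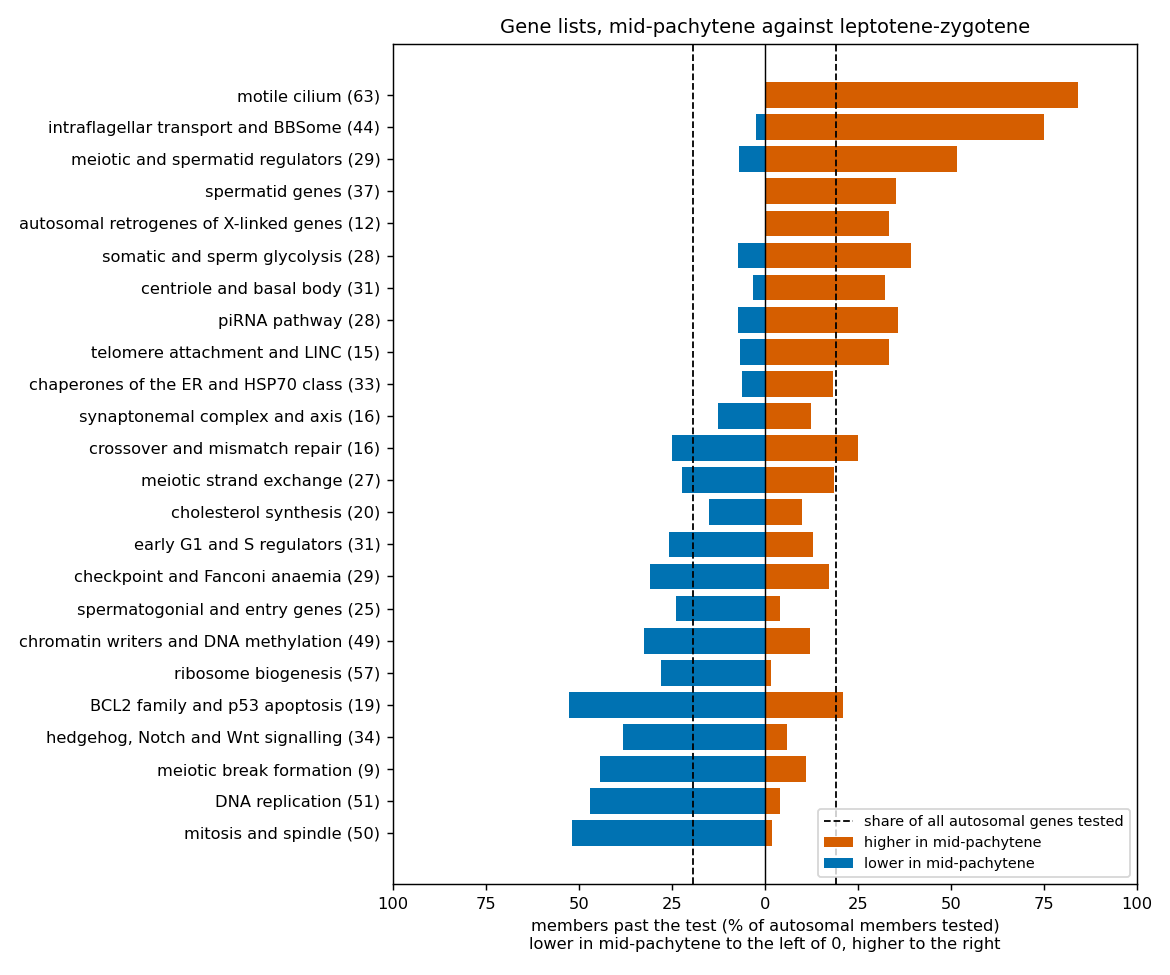
Share of the autosomal members of each gene list past the test, with those higher in mid-pachytene cells to the right and those lower to the left, in percent of the members tested, by list (vertical axis). The dashed lines mark the shares over all autosomal genes tested, 19.1% and 19.4%. The motile cilium list reaches furthest to the right and the lists of apoptosis, mitosis and DNA replication furthest to the left.

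Most genes of the motile axoneme rose. The axoneme is the microtubule scaffold of the sperm tail and of motile cilia, bent by dynein arms and kept in register by radial spokes and a central pair. Of the 67 autosomal genes of this list with a probe set 63 were tested, and 53 of them rose, 0 fell and 10 did not pass. Only 4 lay under the filter (Dnah5, Dnah9, Dnah17 and Rsph4a), and the median change over the 63 was 2.59, or 2.42 over all 67 with values under 5 raised to 5. The mean log2 level of the list was 9.37 and 9.62 on the mid-pachytene arrays, against 6.50, 6.98 and 8.23 on the leptotene-zygotene arrays. Leptotene-zygotene replicate 3 thus lay between the others and the mid-pachytene arrays for this list. The arrays of replicates 2 of both fractions belonged to the same array project, and within it all 53 rises kept their direction, with a median of 3.04 over the list. Both of these arrays also entered the test, so this agreement is no independent check. No other arrays of the fractions shared a project, so fits without mid-pachytene replicate 2 compared the fractions across projects only. Without mid-pachytene replicate 2, 27 genes of the list rose. The round spermatid markers were higher in the same direction, 4 of 11 with a median change of 1.40, and their part in the rise of this list was not tested.

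Within the axoneme the rises covered its motors, their adaptors and the spokes. Dnah7a, an inner-arm dynein heavy chain, stood at 9.49 and 9.09 in mid-pachytene cells, against 5.78, 5.77 and 5.33 in leptotene-zygotene cells. It rose by 3.66 (SE 0.44, adjusted p = 7.16e-05 from limma), and the groups were far apart on every array. Rsph9, a protein of the radial spoke head, stood at 10.51 and 11.33, against 6.98, 6.98 and 8.52, and rose by 3.43 (SE 0.66, adjusted p = 0.00136). Here leptotene-zygotene replicate 3 was again the highest of its group but remained below both mid-pachytene arrays. The intermediate chain gene Dnaic1 rose by 3.57, the heavy chain gene Dnah6 by 3.54 and Dnali1, an inner-arm light chain, by 3.54. Dnali1 stood at 10.50 and 10.06 in mid-pachytene cells and at 5.91, 5.41 and 8.89 in leptotene-zygotene cells, and it did not pass without mid-pachytene replicate 1 (adjusted p = 0.0602) or 2 (adjusted p = 0.0694) or without leptotene-zygotene replicate 2 (adjusted p = 0.0512). Of the 7 axonemal dynein heavy chains tested of 10, 6 rose, and Dnah11, an outer-arm chain of cilia, had a change of -0.57 with overlapping arrays. Of the 22 CFAP genes, named for the cilia and flagella they belong to, 21 rose and 0 fell (10 rose without mid-pachytene replicate 2), among them Cfap54 (3.38), Cfap61 (3.29) and Cfap221 (3.23). The floored changes were 2.97 for Dnaic1, 2.86 for Dnah6, 2.44 for Cfap61 and 2.56 for Cfap221. Dnaaf5, a factor that assembles dynein arms in the cytoplasm, had a change of -0.05, with 10.02 and 10.11 in mid-pachytene cells and 9.95, 10.28 and 10.11 in leptotene-zygotene cells.

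The tektins, filament proteins inside the doublet microtubules, had changes of 1.78 to 3.52. Tekt5 stood at 8.19 and 7.99 in mid-pachytene cells, against 3.35, 3.35 and 7.004 in leptotene-zygotene cells, and rose by 3.52 (SE 0.95, adjusted p = 0.0109 from limma), with a floored change of 2.42. Tekt2 rose by 1.78, with 9.72 and 10.55 against 7.87, 8.02 and 9.16. Tekt1 (2.12), Tekt3 (1.86) and Tekt4 (1.88) did not pass. On these 3 genes leptotene-zygotene replicate 3 was well above its companions, at 10.18, 9.11 and 8.92. Without mid-pachytene replicate 2 neither Tekt5 (adjusted p = 0.0728) nor Tekt2 (adjusted p = 0.232) passed, and Tekt2 was also lost without leptotene-zygotene replicate 1 (adjusted p = 0.0823) or 2 (adjusted p = 0.0745). The tubulins themselves showed no such rise. Of 10 tubulin genes tested only Tubb2a passed, and it fell by 1.67 (floored change -1.52). The other 9 had changes between -1.31 (Tubg1, the nucleating gamma-tubulin) and 0.83 (Tuba8), with Tubb3 at -0.98, Tubb5 at -0.89, Tuba1a at -0.80, Tubb6 at -0.52, Tuba4a at -0.45, Tubb4b at -0.28 and Tubb2b at 0.34. Tuba3b, Tubb1, Tubb4a and Tubg2 lay under the filter. Tubb2a did not pass without mid-pachytene replicate 2, nor without 1 or more of the other 4 arrays.

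**Figure D2:**
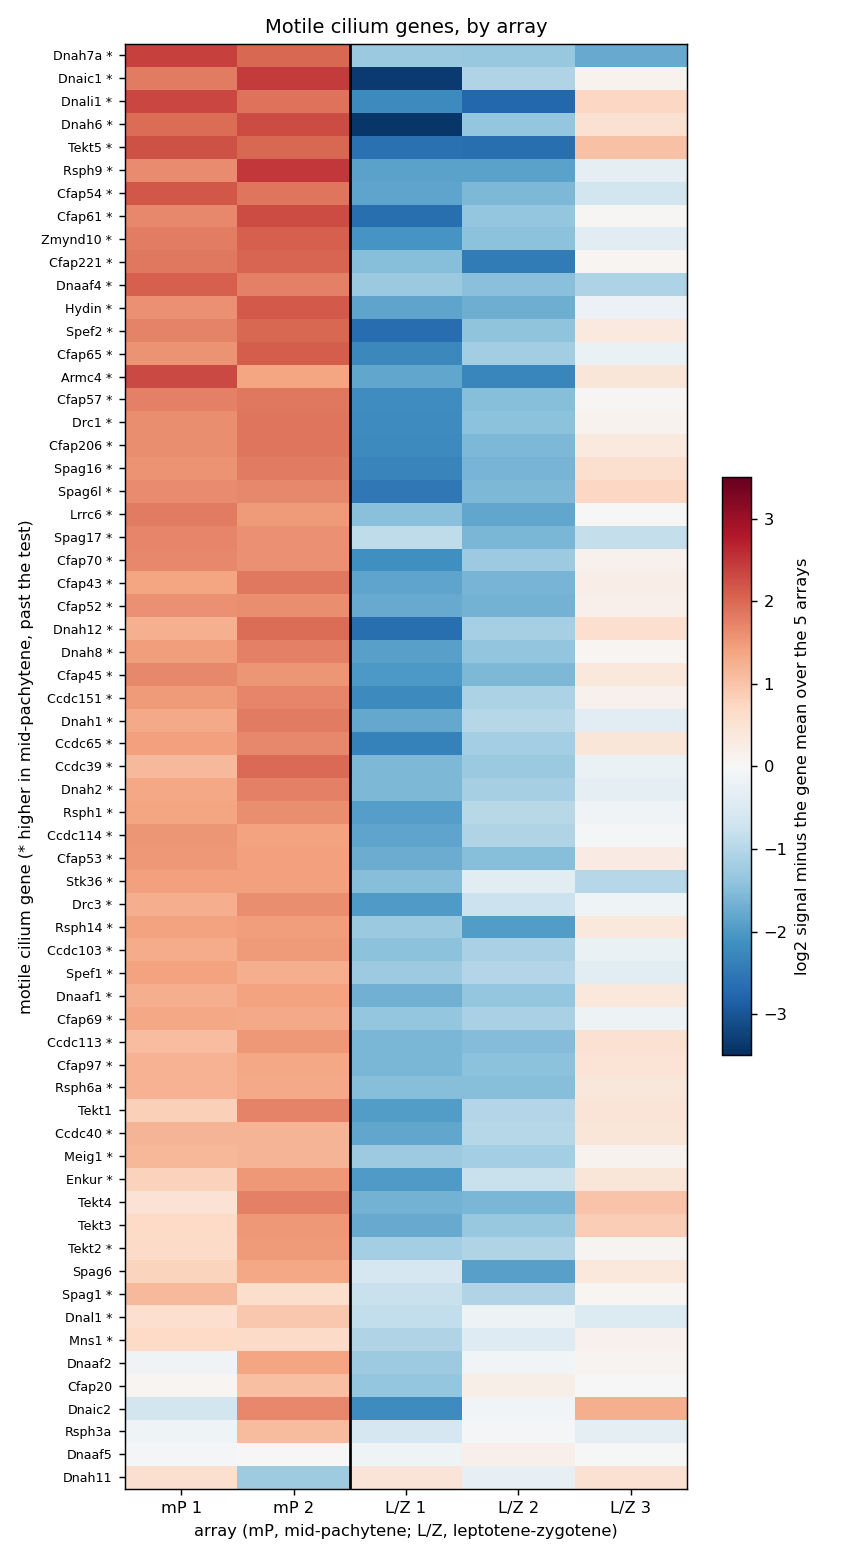
Log2 signal of each motile cilium gene (rows) on the 2 mid-pachytene arrays (left columns) and the 3 leptotene-zygotene arrays (right columns), relative to the mean over the 5 arrays. Leptotene-zygotene replicate 3 is intermediate for many genes (list mean 8.23, against 6.50 and 6.98 for replicates 1 and 2).

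Promoters of axonemal genes are shown because many ciliary genes are known to carry the X-box, an imperfect inverted repeat bound by RFX factors. RefSeq promoters (GRCm38.p6) of 300 bases, from 250 before to 50 after a gene start, were searched on both strands. Of 49 promoters of axonemal genes that rose, 9 (18.4%) held an X-box, and of the 63 promoters of all list members 11 (17.5%) did, against 611 of all 32851 promoters (1.86%). The share was 4.24% among promoters of autosomal genes that rose, 1.13% among those that fell and 1.80% among those that did not pass. Below are 4 stretches around the match, on the strand of the gene, with the X-box in capitals. They lie at chr17:46144181-46144256 (minus strand) for Rsph9, chr9:107547254-107547323 (plus strand) for Zmynd10, chr4:125065638-125065715 (minus strand) for Dnali1 and chr1:119997213-119997290 (minus strand) for Cfap221. Zmynd10, a factor of dynein arm assembly, rose by 3.23 but did not pass without mid-pachytene replicate 2 (adjusted p = 0.0843). In all 4 the match lay within 14 bases of the annotated gene start. A match is a description of the letters and shows no binding. Dnali1 did not pass without mid-pachytene replicate 2.
Rsph9: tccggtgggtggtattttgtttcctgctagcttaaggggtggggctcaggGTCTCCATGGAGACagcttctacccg
Zmynd10: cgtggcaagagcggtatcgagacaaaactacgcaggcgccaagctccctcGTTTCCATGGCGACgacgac
Dnali1: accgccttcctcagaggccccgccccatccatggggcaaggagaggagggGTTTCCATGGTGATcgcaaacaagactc
Cfap221: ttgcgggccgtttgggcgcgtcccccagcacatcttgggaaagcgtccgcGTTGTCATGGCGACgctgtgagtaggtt

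Most intraflagellar transport genes rose. These proteins form the trains that carry cargo along a growing flagellum, and the BBSome is an adaptor for membrane cargo. Of 44 autosomal genes of both complexes and their motors, all tested, 33 rose, 1 fell and 10 did not pass, with a median change of 1.51. Of the 14 genes named Ift, 13 rose. Ift80, a subunit of the IFT-B complex, stood at 10.42 and 10.08 in mid-pachytene cells, against 7.56, 7.62 and 7.61 in leptotene-zygotene cells, and rose by 2.65 (SE 0.34, adjusted p = 0.000104 from limma). The mean log2 level of the list was 9.85 and 9.88 on the mid-pachytene arrays, against 8.36, 8.54 and 8.73 on the leptotene-zygotene arrays, of which replicate 3 was again the highest. Bbs1, a BBSome subunit, stood at 9.53 and 9.85, against 6.42, 7.89 and 5.92, and rose by 2.95 (SE 0.57, adjusted p = 0.00146). Wdr19 (an IFT-A subunit) and Ttc30a1 (a subunit of IFT-B) each rose by 2.84 (Wdr19 by 2.42 with the floor) and Ift57 by 2.38. The exceptions had other patterns. Mkks, a chaperonin-like protein that helps to assemble the BBSome, fell by 1.37, Ift52 had a change of 0.05 and Bbs4 of 0.22, and Kif3a, a motor subunit of the trains, had 11.51 and 11.40 in mid-pachytene cells against 12.02, 12.20 and 11.90 in leptotene-zygotene cells (-0.59, adjusted p = 0.0606). X-boxes were in 3 of 29 promoters of the genes that rose (10.3%). When mid-pachytene replicate 2 was left out, 21 genes of the list rose. Mkks did not pass without mid-pachytene replicate 2, nor without 1 or more of the other 4 arrays.

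Some centriole genes rose. Of 31 genes tested 10 rose and 1 fell, with a median of 0.42, and 5 rose without mid-pachytene replicate 2. Cntln, encoding centlein, a linker of centriole pairs, rose by 3.53 (8.74 and 8.71 in mid-pachytene cells, against 4.44, 5.61 and 5.53 in leptotene-zygotene cells), Cep97, a cap protein of the centriole, by 2.81, and Fbf1, of the distal appendages that dock a basal body, by 1.97. The floored changes of Cntln and Cep97 were 3.34 and 2.47. Plk4, the kinase that starts centriole duplication, fell by 1.57. Of the centrins, calcium-binding proteins of the centriole lumen, Cetn1 stood at 12.74 and 13.25 in mid-pachytene cells, against 9.43, 10.09 and 11.92 in leptotene-zygotene cells, and rose by 2.52 (SE 0.64, adjusted p = 0.00744 from limma, 0.088 without mid-pachytene replicate 2). Cetn4 rose by 2.00. Cetn3 was level at 12.15 and 12.09 against 12.05, 12.22 and 12.21, a change of -0.04. Only autosomal centrins were taken, and Cetn2 was not among them. Cetn1 and Cetn4 shared the position of leptotene-zygotene replicate 3 near the mid-pachytene arrays, and Cetn3 did not. Cetn4 did not pass without mid-pachytene replicate 2, nor without 1 or more of the other 4 arrays.

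Many factors that regulate the late meiotic and spermatid program rose. Of 29 such genes tested of 30, 15 rose and 2 fell, with a median change of 1.06. With mid-pachytene replicate 2 left out the number of rises was 6 and without leptotene-zygotene replicate 1 it was 9. Rfx2, the RFX factor required for flagellum genes in spermatids, stood at 10.51 and 11.16 in mid-pachytene cells, against 6.81, 8.39 and 9.11 in leptotene-zygotene cells, and rose by 2.73 (SE 0.58, adjusted p = 0.00258 from limma). Rfx4 rose by 3.18, with 9.26 and 9.46 against 5.68, 6.21 and 6.66. The other RFX genes did not follow: Rfx1 fell by 1.00 and Rfx3 had a change of -0.16, with arrays between 5.3 and 5.7 in both fractions. The RNA-binding protein genes Boll and Ybx2, both known to act on stored messengers, rose by 2.41 and 2.35, and Crem, a transcription factor of spermatids, by 2.31. Cpeb1, a regulator of cytoplasmic polyadenylation in early prophase, fell by 1.53, while its relative Cpeb2 rose by 1.66. Among poly(A) polymerases Papolb, the testis enzyme, rose by 1.96 and Papola, the general one, fell by 1.32. Of 20 polyadenylation genes tested 4 fell, Papola among them, and only Papolb rose. Those falls numbered 1 without mid-pachytene replicate 2 and 2 without leptotene-zygotene replicate 1 or 2. Ybx2, Crem, Papolb and Papola did not pass without mid-pachytene replicate 2. Rfx1, Crem, Cpeb1 and Papolb did not pass without 1 or more of the other 4 arrays.

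**Figure D3:**
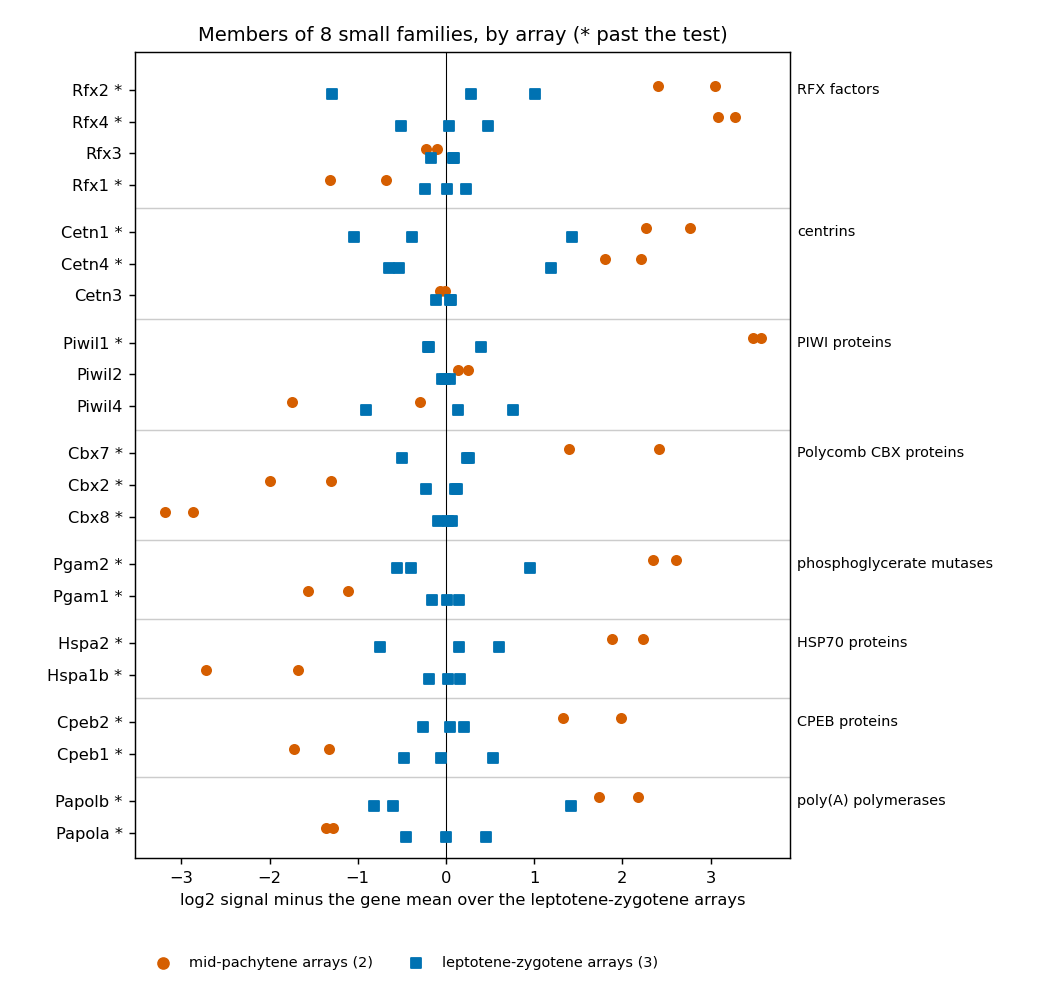
Log2 signal of members of 8 small families on the 2 mid-pachytene arrays (orange circles) and the 3 leptotene-zygotene arrays (blue squares), each relative to the gene's mean over the leptotene-zygotene arrays; asterisks mark genes past the test. Within the RFX, CBX, HSP70, CPEB, phosphoglycerate mutase and poly(A) polymerase families some members rose and others fell, as with Cbx7 (1.90) and Cbx8 (-3.02, or -2.75 with values under 5 raised to 5).

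Genes of the piRNA pathway rose in part, led by Piwil1. PIWI proteins carry small RNAs that silence transposons, and a late class of piRNAs appears at pachynema. Of 28 genes, all tested, 10 rose and 2 fell, with a median of 0.45, and 5 rose without mid-pachytene replicate 2. Piwil1, the PIWI protein of pachytene piRNAs, stood at 13.59 and 13.68 in mid-pachytene cells, against 9.92, 10.51 and 9.91 in leptotene-zygotene cells, and rose by 3.52 (SE 0.39, adjusted p = 4.78e-05 from limma). Piwil2, which is present from spermatogonia onward, had 12.51 and 12.62 against 12.33, 12.36 and 12.42, a change of 0.19, and Piwil4, the nuclear PIWI protein of fetal germ cells, a change of -1.02 with overlapping arrays. Tdrd5, a tudor protein of the chromatoid body, rose by 2.13 and Pld6, a mitochondrial protein of piRNA biogenesis, by 1.92. Exd2, an exonuclease-domain protein that the list also counts, rose by 2.22, and its part in the pathway was not tested. Btbd18, a nuclear factor for the transcription of pachytene piRNA precursors, fell by 1.63, and Tex15, which acts in transposon silencing and in meiotic recombination, fell by 1.59. Mybl1, encoding A-MYB, the transcription factor of pachytene piRNA genes, stood at 9.13 and 8.997 in mid-pachytene cells, against 6.46, 6.65 and 7.45 in leptotene-zygotene cells, and rose by 2.21 (SE 0.42, adjusted p = 0.00135). Tdrd5 and Btbd18 did not pass without mid-pachytene replicate 2.

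The core letters TAACNG of MYB sites were in 4 of 10 promoters of piRNA genes that rose (40.0%), in 8 of 30 promoters of all piRNA genes (26.7%) and in 6 of 15 promoters of the regulators that rose (40.0%). They were in 23.3% of all promoters, in 26.2% of those of autosomal genes that rose and in 17.2% of those that fell, so a match is common everywhere. Shown are Piwil1 (chr5:128736057-128736162, plus strand) and Tcfl5 (chr2:180642754-180642859, minus strand), as a promoter of each of these lists, with the match in capitals, which in Piwil1 reads on the opposite strand. Tcfl5, a basic helix-loop-helix factor of spermatocytes, stood at 14.08 and 14.12 in mid-pachytene cells, against 13.10, 12.82 and 13.23 in leptotene-zygotene cells, and rose by 1.05 (adjusted p = 0.0054 from limma, 0.0532 without mid-pachytene replicate 2).
Piwil1: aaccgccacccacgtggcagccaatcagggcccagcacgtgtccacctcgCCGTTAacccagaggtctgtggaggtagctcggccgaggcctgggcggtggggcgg
Tcfl5: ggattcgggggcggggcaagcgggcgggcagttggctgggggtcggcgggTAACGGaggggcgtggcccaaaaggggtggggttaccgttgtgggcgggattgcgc

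A share of the spermatid genes rose, acrosome genes among them, with a wide spread among arrays. The acrosome is the enzyme vesicle of the sperm head. Of 37 genes, all tested, 13 rose and 0 fell, with a median change of 1.49. Acr, encoding the protease acrosin, stood at 11.43 and 12.78 in mid-pachytene cells, against 7.67, 8.35 and 10.11 in leptotene-zygotene cells, and rose by 3.39 (SE 0.76, adjusted p = 0.00363 from limma, 0.0765 without mid-pachytene replicate 2). Dkkl1 and Acrbp, proteins of the acrosome, rose by 3.11 and 3.01, Spesp1, of the equatorial segment, by 2.77 and Izumo1, the sperm protein of gamete fusion, by 2.52. Mid-pachytene replicate 2 exceeded replicate 1 on each of these genes, and leptotene-zygotene replicate 3 was the highest of its fraction. The count rests on single arrays: it was 0 without mid-pachytene replicate 2 (3 genes at an unadjusted p under 0.05), 4 without leptotene-zygotene replicate 1 and 5 without replicate 2. The mean level of the list was 10.33 and 11.14 on the mid-pachytene arrays, against 8.84, 8.79 and 9.52 on the leptotene-zygotene arrays. Round spermatid transcripts were present in both fractions. Prm1, a protamine of elongating spermatids, read 13.93 to 14.26 in mid-pachytene cells and 13.47 to 14.32 in leptotene-zygotene cells, against 14.12 to 14.72 on the 4 round spermatid arrays, while Acrv1, an acrosomal protein, read 9.80 to 11.87 and 8.001 to 9.10, against 12.45 to 14.01. The part of spermatid RNA in the rise of this list was not tested. Dkkl1, Acrbp, Spesp1, Izumo1 and Acrv1 did not pass without mid-pachytene replicate 2. Acrbp, Spesp1 and Acrv1 did not pass without 1 or more of the other 4 arrays.

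Several ADAM proteases, membrane proteins of the sperm surface among them, were higher in mid-pachytene cells. Of 15 tested of 28, 8 rose and 1 fell, and the rises numbered 0 without mid-pachytene replicate 2 (1 at an unadjusted p under 0.05) and 2 and 3 without leptotene-zygotene replicates 1 and 2. Adam1b rose by 3.31, Adam18 by 2.99 and Adam2, the beta subunit of fertilin, by 2.93 (13.45 and 14.47 in mid-pachytene cells, against 10.19, 11.15 and 11.74 in leptotene-zygotene cells). Adam15, a widely expressed member, fell by 1.26. Among the flippases, which move phospholipids across the bilayer, 5 of 11 tested rose and 1 fell (1 rise without mid-pachytene replicate 2). Tmem30c, a testis chaperone subunit of flippases, stood at 10.13 and 11.93 in mid-pachytene cells, against 5.55, 6.87 and 7.25 in leptotene-zygotene cells, and rose by 4.47 (SE 0.80, adjusted p = 0.000912 from limma). Atp8b3, the flippase of the acrosome, rose by 2.54, and its relative Atp8b2 fell by 1.53. Adam1b, Adam18, Adam2, Atp8b3 and Atp8b2 did not pass without mid-pachytene replicate 2. Adam1b, Adam18 and Adam2 did not pass without 1 or more of the other 4 arrays.

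Some genes of energy metabolism rose, and isoforms of the same enzyme did not always move together. Sperm use germ-cell forms of many glycolytic enzymes, some of them autosomal copies of X-linked genes. Of 28 genes tested of 32, 11 rose and 2 fell, with a median of 1.07. Ldha, the lactate dehydrogenase subunit of glycolytic tissues, stood at 13.16 and 13.12 in mid-pachytene cells, against 9.86, 10.12 and 11.65 in leptotene-zygotene cells, and rose by 2.59 (SE 0.63, adjusted p = 0.00566 from limma, 0.0511 without mid-pachytene replicate 2). Pdha2, the retrogene of the X-linked pyruvate dehydrogenase subunit, rose by 2.88, Pfkm, the muscle phosphofructokinase, by 2.73 and Eno3, the muscle enolase, by 2.46. The phosphoglycerate mutases moved in opposite directions. Pgam2 had 13.93 and 13.67 in mid-pachytene cells, against 10.93, 10.76 and 12.28, and rose by 2.48, whereas Pgam1 had 10.50 and 10.05, against 11.45, 11.77 and 11.62, and fell by 1.34. The monocarboxylate transporter Slc16a1 fell by 1.14. Pgk2 and Gapdhs, sperm forms of their enzymes, had changes of 1.06 and 1.09 that did not pass. The rises numbered 3 when mid-pachytene replicate 2 was left out and 6 when replicate 1 was, and 7 and 5 when leptotene-zygotene replicate 1 or 2 was. Of 12 autosomal retrogenes with an X-linked parent 4 rose (Pdha2, Fam50b by 2.84, Cetn1 and Prps1l1 by 2.47) and 0 fell, with 0 rises without mid-pachytene replicate 2 (4 at an unadjusted p under 0.05). Pgam2, Pgam1 and Slc16a1 did not pass without mid-pachytene replicate 2. Pgam2, Slc16a1 and Fam50b did not pass without 1 or more of the other 4 arrays.

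In the respiratory chain, where 6 of 77 subunits rose and 2 fell, the rises were led by testis isoforms. Cox8c, Cox6b2 and Cox7b2, testis subunits of cytochrome c oxidase, rose by 2.91, 2.56 and 1.93, and Cyct, the testis cytochrome c, by 2.22. Cox6b2 stood at 14.19 and 14.15 in mid-pachytene cells, against 11.21, 11.50 and 12.12 in leptotene-zygotene cells (SE 0.41, adjusted p = 0.000448 from limma). Cox7a1, the form of heart and muscle, fell by 1.64 (floored change -1.11). The share of rises in this family, 6 of 77, was below that of all autosomal genes. The proteasome showed the same kind of exception: 2 of 41 subunits rose and 7 fell (0 falls without mid-pachytene replicate 2, 5 at an unadjusted p under 0.05, and 4 without leptotene-zygotene replicate 2). Psma8, the alpha subunit of the spermatocyte proteasome, stood at 13.18 and 13.48 in mid-pachytene cells, against 10.51, 11.11 and 10.97 in leptotene-zygotene cells, and rose by 2.47 (SE 0.40, adjusted p = 0.000535), whereas Psma7, the subunit it resembles, fell by 1.52 and the assembly chaperone Psmd5 by 1.88. Cox7a1, Psma7 and Psmd5 did not pass without mid-pachytene replicate 2. Cox7a1 did not pass without 1 or more of the other 4 arrays.

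Chaperones also differed by member. Of 33 tested of 35, 6 rose and 2 fell, with a median of -0.02. Clgn, calmegin, a chaperone of the endoplasmic reticulum for sperm surface proteins, stood at 13.78 and 15.05 in mid-pachytene cells, against 9.94, 11.37 and 10.34 in leptotene-zygotene cells, and rose by 3.87 (SE 0.83, adjusted p = 0.0029 from limma, 0.0601 without mid-pachytene replicate 2). Cct6b, a testis subunit of the chaperonin, rose by 2.66 and Pdilt, a disulfide isomerase of spermatids, by 1.89. Hspa2, the HSP70 protein of spermatocytes, had 13.62 and 13.97 in mid-pachytene cells, against 10.99, 11.88 and 12.33, and rose by 2.06 (adjusted p = 0.00462, 0.0631 without mid-pachytene replicate 2), and Hspa4l rose by 1.31. The stress-induced Hspa1b fell by 2.20, with 8.62 and 7.58 in mid-pachytene cells, against 10.33, 10.11 and 10.47, and the mitochondrial chaperonin Hspd1 fell by 1.76. Of the chaperones 0 rose without mid-pachytene replicate 2 (3 at an unadjusted p under 0.05), and 2 and 3 rose without leptotene-zygotene replicates 1 and 2. Of 41 DNAJ co-chaperones tested 12 rose and 3 fell, with 3 rises without mid-pachytene replicate 2 and 7 without leptotene-zygotene replicate 1. Cct6b, Pdilt, Hspa4l, Hspa1b and Hspd1 did not pass without mid-pachytene replicate 2. Cct6b, Pdilt and Hspa4l did not pass without 1 or more of the other 4 arrays.

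Several families defined by a repeat or by a cDNA collection held many rises and few falls. Among 116 genes tested that carry only a RIKEN clone name of the collection from adult mouse testis (such as 1700006A11Rik), 61 rose and 1 fell, with a median of 1.80, and 68 more lay under the filter. Among the coiled-coil Ccdc genes 38 of 87 tested rose and 4 fell, among the Ttc genes 17 of 36 rose and 3 fell, among the Lrrc genes 13 of 31 rose and 4 fell, and among the Spata and Spag genes 14 of 29 rose and 2 fell. Examples of the rises are Ccdc88b (3.21, floored 2.38), Ttc16 (3.11, floored 3.05), Lrrc61 (3.41, floored 2.64) and Spag8 (2.96). When mid-pachytene replicate 2 was left out the rises numbered 18 (RIKEN clones), 14 (Ccdc), 11 (Ttc), 4 (Lrrc) and 4 (Spata and Spag). Without leptotene-zygotene replicate 1 they numbered 36, 25, 14, 7 and 6 in the same order, without its replicate 2 they numbered 35, 33, 13, 8 and 8, and without mid-pachytene replicate 1 the Lrrc and the Spata and Spag genes had 8 and 9. Lrrc61 stood at 7.71 and 7.58 in mid-pachytene cells, against 4.50, 4.15 and 4.05 in leptotene-zygotene cells. The WD repeat family was divided, with 18 rises and 15 falls among 53 tested. The rises included Wdr66 (3.91, floored 3.31), a protein of the flagellum, Wdr17 (3.50, floored 3.24) and Wdr27 (3.45, floored 2.26), and the falls included Wdr36 (-1.59), a ribosome assembly factor, and Wdr76 (-1.52). The falls of this family numbered 3 without mid-pachytene replicate 2 and 8 and 9 without leptotene-zygotene replicates 1 and 2. Wdr36 and Wdr76 did not pass without mid-pachytene replicate 2, nor without 1 or more of the other 4 arrays.

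Many DNA replication genes fell. Premeiotic S phase ends before leptonema. Of 51 genes tested of 52, 24 fell and 2 rose, with a median of -0.91. Cdc6, which loads the replicative helicase, stood at 7.87 and 7.28 in mid-pachytene cells, against 9.52, 9.86 and 9.82 in leptotene-zygotene cells, and fell by 2.16 (SE 0.30, adjusted p = 0.000173 from limma). Rrm2, the regulated subunit of ribonucleotide reductase, had 8.73 and 8.13, against 10.96, 10.56 and 10.65, and fell by 2.29 (SE 0.34, adjusted p = 0.000295). On both genes the 3 leptotene-zygotene arrays were within 0.5 of each other. Tk1, thymidine kinase of S phase, fell by 2.64 (floored change -2.09), the origin recognition subunit gene Orc1 by 2.42 and the helicase subunit gene Mcm2 by 2.11. Orc5 and Rfc2, a clamp loader subunit, rose by 1.30 and 1.08. Pcna, the sliding clamp, which also serves repair, had 13.01 and 13.60 in mid-pachytene cells and 12.90, 13.77 and 13.49 in leptotene-zygotene cells. All 26 calls kept their direction within the shared array project, whose arrays also entered the test. The falls numbered 6 when mid-pachytene replicate 2 was left out, and 14 and 13 when leptotene-zygotene replicate 1 or 2 was. Mcm2 and Rfc2 did not pass without mid-pachytene replicate 2, nor without 1 or more of the other 4 arrays.

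Promoters of this list were searched for 2 forms of the E2F site, since E2F factors drive S phase genes in dividing cells. TTCCCGC was in 6 of 25 promoters of replication genes that fell (24.0%) and in 20 of 53 promoters of the whole list (37.7%), against 4.6% of all promoters. TTTGGCG was in 5 of 25 and in 10 of 53 (18.9%), against 1.57% of all promoters. An occurrence of one form can share letters with the other where they lie on opposite strands. Shown are Cdc6 (chr11:98907963-98908069, plus strand) with TTCCCGC, read on the opposite strand, and Mcm6 (chr1:128359759-128359865, minus strand) with TTTGGCG. Mcm6, a helicase subunit, had 11.53 and 10.90 in mid-pachytene cells, against 12.39, 12.77 and 12.65 in leptotene-zygotene cells, and fell by 1.39 (adjusted p = 0.0104 from limma, 0.148 without mid-pachytene replicate 2).
Cdc6: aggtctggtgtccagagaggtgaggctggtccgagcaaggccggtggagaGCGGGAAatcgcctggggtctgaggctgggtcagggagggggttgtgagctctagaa
Mcm6: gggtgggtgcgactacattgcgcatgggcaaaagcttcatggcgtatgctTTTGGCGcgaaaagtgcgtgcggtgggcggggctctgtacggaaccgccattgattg

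Regulators of the G1 and S phases fell and rose. Of 31 tested of 34, 8 fell and 4 rose. Ccnd1, cyclin D1 of early G1, stood at 8.16 and 7.88 in mid-pachytene cells, against 10.63, 11.19 and 10.33 in leptotene-zygotene cells, and fell by 2.70 (SE 0.52, adjusted p = 0.00139 from limma). E2f5 and Tfdp2, transcription factors of the E2F complexes, fell by 2.00 and 1.61 and the growth regulator gene Mycn by 1.90. The inhibitors of cyclin D kinases rose: Cdkn2c had 10.72 and 11.27 in mid-pachytene cells, against 8.19, 9.03 and 9.78, and rose by 1.99, and Cdkn2d rose by 1.85. With mid-pachytene replicate 2 left out the list had 2 falls and 1 rise, and without leptotene-zygotene replicate 1 it had 2 rises. Tfdp2, Mycn, Cdkn2c and Cdkn2d did not pass without mid-pachytene replicate 2, nor without 1 or more of the other 4 arrays.

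Many genes of mitosis and the spindle fell. Of 50 genes, all tested, 26 fell and 1 rose, with a median of -0.94, and 12 fell without mid-pachytene replicate 2. Ccna2, cyclin A2, stood at 10.57 and 10.47 in mid-pachytene cells, against 12.16, 12.66 and 12.68 in leptotene-zygotene cells, and fell by 1.97 (SE 0.33, adjusted p = 0.000579 from limma). Kif23, a kinesin of the central spindle, had 9.70 and 9.46, against 11.25, 11.36 and 11.39, and fell by 1.75 (SE 0.28, adjusted p = 0.000448). The groups did not overlap on either gene. The phosphatase gene Cdc25b fell by 3.31, or by 1.91 with values under 5 raised to 5, the centromeric histone gene Cenpa by 2.37, and the kinase genes Melk and Aurkb by 2.09 and 2.08. Pttg1, securin, rose by 0.62. Several other regulators of M phase did not pass. Cdk1, the kinase of M phase, had 9.82 and 10.41 in mid-pachytene cells and 10.38, 11.07 and 11.02 in leptotene-zygotene cells (-0.71, adjusted p = 0.199), its partner Ccnb2 had a change of 0.32 and the spindle pole kinase Aurka of 0.29. Cenpa, Melk and Pttg1 did not pass without mid-pachytene replicate 2, nor without 1 or more of the other 4 arrays.

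Mitotic promoters are shown because genes of the late cell cycle are known to share a short element near their start, with the letters TTTGAA. It was in 14 of 21 promoters of mitotic genes that fell (66.7%) and in 31 of 45 promoters of the whole list (68.9%), against 17.9% of all promoters. Its share was thus alike in the genes that fell and in the whole list. Of the genes shown, Racgap1, a partner of Kif23 in cytokinesis, fell by 1.23, and Mki67, which coats mitotic chromosomes, fell by 1.72 (adjusted p = 0.00656 from limma, 0.0875 without mid-pachytene replicate 2). The stretches lie at chr9:61946780-61946847 (Kif23), chr15:99651637-99651701 (Racgap1) and chr7:135716440-135716545 (Mki67), all on the minus strand, and the element is in capitals, with 2 matches in Mki67.
Kif23: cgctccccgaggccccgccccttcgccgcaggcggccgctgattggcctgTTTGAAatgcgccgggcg
Racgap1: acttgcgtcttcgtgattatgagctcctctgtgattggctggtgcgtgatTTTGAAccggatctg
Mki67: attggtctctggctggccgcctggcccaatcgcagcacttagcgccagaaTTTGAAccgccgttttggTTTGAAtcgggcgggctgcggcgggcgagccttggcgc

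**Figure D4:**
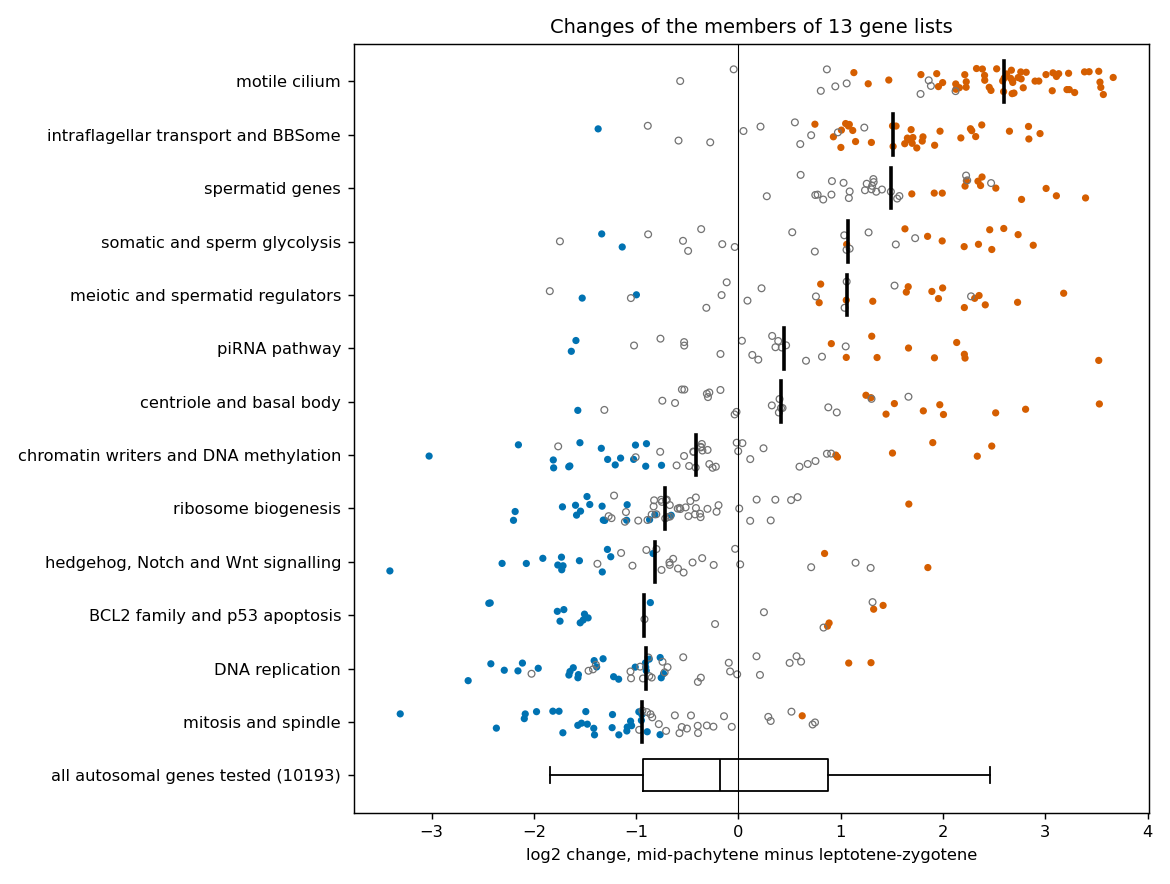
Change of each tested gene (points) in 13 gene lists, as mid-pachytene minus leptotene-zygotene on the log2 scale (horizontal axis), with the median of each list and, at the bottom, a box of all autosomal genes tested whose whiskers span the 5th to the 95th percentile. The median of the motile cilium list is 2.59 and that of the mitosis list -0.94, against -0.18 over all autosomal genes.

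More apoptosis genes of the BCL2 and p53 pathways fell than rose. Spermatocytes with unrepaired breaks or unsynapsed chromosomes are known to be removed by apoptosis. Of 27 genes 19 were tested, and 10 fell and 4 rose, with a median of -0.92 (0 over all 27 with values under 5 raised to 5). Bik, a BH3-only killer protein, stood at 6.33 and 5.30 in mid-pachytene cells, against 8.65, 8.07 and 8.06 in leptotene-zygotene cells, and fell by 2.44 (SE 0.43, adjusted p = 0.000844 from limma). Apaf1, the core of the apoptosome, had 5.28 and 5.11, against 7.38, 7.95 and 7.53, and fell by 2.43 (SE 0.38, adjusted p = 0.000405). The BH3-only genes Bcl2l11 and Bmf fell by 1.77 and 1.71 (floored change of Bmf -1.12) and Casp2, an initiator caspase, by 1.74. The rises were on both sides of the pathway: Bad (1.41) and Diablo (1.32) promote death, and Birc2 (0.89) and Bcl2l1 (0.87), encoding an inhibitor of apoptosis and BCL-XL, oppose it. When mid-pachytene replicate 2 was left out, 3 genes fell and 1 rose. Bcl2l11, Bmf, Diablo, Birc2 and Bcl2l1 did not pass without mid-pachytene replicate 2. Bmf, Birc2 and Bcl2l1 did not pass without 1 or more of the other 4 arrays.

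Several members of the hedgehog, Notch and Wnt pathways fell. Of 54 genes 34 were tested, and 13 fell and 2 rose, with a median of -0.82. The other 20 lay under the filter. Gli2, the transcription factor of hedgehog signalling, stood at 4.34 and 3.97 in mid-pachytene cells, against 7.27, 7.79 and 7.63 in leptotene-zygotene cells, and fell by 3.41 (SE 0.39, adjusted p = 5.24e-05 from limma), or by 2.57 with values under 5 raised to 5. Smo, the receptor component upstream of it, fell by 2.31. The receptor gene Notch1 had 5.75 and 5.23 in mid-pachytene cells, against 7.26, 7.67 and 7.75, and fell by 2.07, and Rbpj and Maml1, its nuclear partners, fell by 1.91 and 1.77. Lef1, a factor of the Wnt pathway, rose by 1.85 and Dvl1, an adaptor, by 0.84. With mid-pachytene replicate 2 left out the falls numbered 4, and without leptotene-zygotene replicate 2 they numbered 8. Smo, Lef1 and Dvl1 did not pass without mid-pachytene replicate 2, nor without 1 or more of the other 4 arrays.

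Chromatin regulators fell more often than they rose. Of 49 writers, readers and DNA methylation genes tested of 53, 16 fell and 6 rose, with a median of -0.42. The Polycomb proteins of the CBX family, which read methylated histone H3, were divided. Cbx8 stood at 4.89 and 4.57 in mid-pachytene cells, against 7.83, 7.66 and 7.78 in leptotene-zygotene cells, and fell by 3.02 (SE 0.33, adjusted p = 4.32e-05 from limma), with a floored change of -2.75, and Cbx2 fell by 1.65. Cbx7 had 8.36 and 9.38, against 6.47, 7.22 and 7.20, and rose by 1.90. The methyltransferase genes Setdb2, Kmt2a, Ehmt1 and Suv39h2 fell by 2.15, 1.81, 1.81 and 1.66. The demethylase genes Kdm4d and Kdm3a rose by 2.34 and 1.51, and the remodeller gene Chd1 by 2.48. Kdm3a is known to be needed for the packaging of sperm chromatin. The rises numbered 1 without mid-pachytene replicate 2. The falls numbered 4 and 10 without mid-pachytene replicates 2 and 1, 9 without leptotene-zygotene replicate 2, and 10 when only the 5 arrays were fitted. Cbx2, Cbx7, Kmt2a, Ehmt1, Kdm4d and Kdm3a did not pass without mid-pachytene replicate 2. Cbx2, Kmt2a and Ehmt1 did not pass without 1 or more of the other 4 arrays.

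Among genes that make ribosomes and charge tRNAs, falls outnumbered rises, and few ribosomal protein genes passed. Of 57 ribosome biogenesis genes, all tested, 16 fell and 1 rose, with a median of -0.72. Utp6, a subunit of the complex that processes the rRNA of the small subunit, stood at 8.01 and 7.81 in mid-pachytene cells, against 10.02, 10.13 and 10.19 in leptotene-zygotene cells, and fell by 2.20 (SE 0.34, adjusted p = 0.000354 from limma). Polr1b, a subunit of RNA polymerase I, fell by 2.18 (floored change -1.22) and Ubtf, its initiation factor, by 1.58. Rrp1, a nucleolar protein, rose by 1.67. Fbl (-1.10, adjusted p = 0.0512) and Npm1 (-0.72, adjusted p = 0.0562), abundant nucleolar proteins, did not pass. The falls numbered 2 when mid-pachytene replicate 2 was left out, and 9 and 8 when leptotene-zygotene replicate 1 or 2 was. Aminoacyl-tRNA synthetases fell in 10 of 31 cases and rose in 1: Tars fell by 1.45 and Ears2 by 1.44, and the mitochondrial Rars2 rose by 1.01. Of 42 cytosolic ribosomal proteins 3 fell and 0 rose, with a median of -0.34. Synthetases had 1 fall without mid-pachytene replicate 2, and ribosomal proteins had 0 falls without it (0 at an unadjusted p under 0.05), 5 without replicate 1, and 0, 1 and 0 without leptotene-zygotene replicates 1, 2 and 3 (3, 4 and 3 at an unadjusted p under 0.05). Of 28 ubiquitin-conjugating enzymes 8 fell, among them Ube2c of the anaphase-promoting complex by 1.68 and Ube2d1 by 1.82 (floored change -1.09), and only Ube2u rose, by 2.82. Those falls numbered 1 without mid-pachytene replicate 2 and 5 without leptotene-zygotene replicate 2 or 3. Ubtf, Tars, Ube2c, Ube2d1 and Ube2u did not pass without mid-pachytene replicate 2. Rrp1, Rars2, Ube2d1 and Ube2u did not pass without 1 or more of the other 4 arrays.

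Some genes of spermatogonia and of meiotic entry fell. Of 25 tested of 29, 6 fell and 1 rose, with a median of -0.99, and 2 fell without mid-pachytene replicate 2. Kit, the receptor of differentiating spermatogonia, stood at 8.68 and 9.03 in mid-pachytene cells, against 10.61, 12.22 and 11.92 in leptotene-zygotene cells, and fell by 2.73 (SE 0.50, adjusted p = 0.00104 from limma). Crabp1, a retinoic acid binding protein, fell by 2.12, the transcription factor genes Sohlh2 and Sohlh1 by 1.77 and 1.48 and Dnd1, an RNA-binding protein of germ cells, by 1.44. Id4, known as a marker of spermatogonial stem cells, ran the other way on all 3 of its probe sets. It stood at 11.60 and 12.65 in mid-pachytene cells, against 8.56, 10.20 and 9.37 in leptotene-zygotene cells, and rose by 2.75 (SE 0.65, adjusted p = 0.00504, 0.0914 without mid-pachytene replicate 2). Stra8, the gatekeeper of meiosis, had 11.61 and 10.94, against 12.54, 12.05 and 12.32, a difference of -1.03 (adjusted p = 0.435). Crabp1, Sohlh1 and Dnd1 did not pass without mid-pachytene replicate 2. Crabp1 and Dnd1 did not pass without 1 or more of the other 4 arrays.

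The genes of recombination did not move together. Of the 9 break formation genes tested of 11, 4 fell and 1 rose. Mei1, Mei4 and Rec114, which form or load the break machinery on the axis, fell by 2.06, 1.76 (floored change of Mei4 -1.19) and 1.33, and Trip13, the ATPase that strips HORMAD proteins from synapsed axes, by 1.56. Spo11, the nuclease-like protein that cuts DNA, stood at 10.68 and 12.64 in mid-pachytene cells, against 7.36, 8.75 and 8.79 in leptotene-zygotene cells, and rose by 3.36 (SE 0.84, adjusted p = 0.0072 from limma, 0.141 without mid-pachytene replicate 2). Its single probe set does not separate the splice forms of the gene. Prdm9 and Ankrd31 lay under the filter. In strand exchange, 6 of 27 genes fell and 5 rose. Dmc1, the meiotic recombinase, had 6.41 and 6.96 in mid-pachytene cells, against 8.60, 9.40 and 9.12, and fell by 2.36 (SE 0.44, adjusted p = 0.0011), whereas Psmc3ip, encoding HOP2, a cofactor of the recombinases, had 11.95 and 11.95, against 9.48, 10.01 and 10.32, and rose by 2.02 (SE 0.36, adjusted p = 0.000847). Mcm8, Exo1, Brca1 and Nbn fell by 1.82, 1.58, 1.50 and 1.29, and Hsf2bp, a BRCA2 partner in meiosis, rose by 1.53. The helicase gene pair Mcm8 and Mcm9 moved apart, with Mcm9 rising by 0.94. When mid-pachytene replicate 2 was left out break formation had 1 fall and 0 rises, and strand exchange 1 fall and 2 rises. Strand exchange had 3 rises without mid-pachytene replicate 1. Mei4, Rec114, Trip13, Mcm8, Exo1, Brca1, Nbn and Mcm9 did not pass without mid-pachytene replicate 2. Rec114, Mcm8 and Mcm9 did not pass without 1 or more of the other 4 arrays.

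In the synaptonemal complex and its axis, 2 of 16 genes rose and 2 fell. Sycp1 and Sycp3, its central and lateral proteins, were level. Sycp3 had 13.63 and 13.56 in mid-pachytene cells and 13.24, 13.61 and 13.30 in leptotene-zygotene cells (0.21), and Sycp1 had a change of 0.09. Sycp2 rose by 1.47 (adjusted p = 0.00622 from limma, 0.0914 without mid-pachytene replicate 2) and Syce1, of the central element, by 1.10. The mitotic cohesin subunit gene Rad21 fell by 1.61 and Smc3 by 1.26. Among 16 crossover and mismatch repair genes 4 rose and 4 fell. Mlh3, which marks crossover sites, stood at 9.62 and 9.33 in mid-pachytene cells, against 7.68, 7.87 and 7.60 in leptotene-zygotene cells, and rose by 1.76 (SE 0.28, adjusted p = 0.000473). Msh4, of the meiotic MutS complex, rose by 1.89, Slx4, a nuclease scaffold, by 1.51 and Msh3 by 1.01. The genes of general mismatch repair Pms2, Pms1 and Msh6 fell by 1.90, 1.82 and 1.11, and the helicase gene Recql4 by 2.23. With mid-pachytene replicate 2 left out the complex had 0 calls in either direction, and the crossover genes 1 rise and 0 falls (3 falls at an unadjusted p under 0.05). Without leptotene-zygotene replicate 1 the crossover genes had 2 rises. Syce1, Rad21, Smc3, Msh4, Slx4, Msh3, Pms2, Pms1, Msh6 and Recql4 did not pass without mid-pachytene replicate 2. Syce1, Msh4, Msh3, Pms2 and Msh6 did not pass without 1 or more of the other 4 arrays.

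Several genes that tether telomeres to the nuclear envelope rose. Of 15 tested of 16 genes of telomere attachment 5 rose and 1 fell. Terb2, Majin and Terb1, the complex that joins meiotic telomeres to the inner membrane, rose by 2.52, 2.20 and 1.27, and Spdya, encoding Speedy A, the partner of CDK2 at telomeres, by 2.29. Terb2 stood at 8.81 and 8.27 in mid-pachytene cells, against 6.55, 6.23 and 5.28 in leptotene-zygotene cells (SE 0.56, adjusted p = 0.00343 from limma). The shelterin genes Terf2 and Tinf2 changed by less than 1, with a rise of 0.73 and a fall of 0.82. Sun1, the inner membrane protein, had 10.78 and 12.78, against 9.96, 11.10 and 10.02, and did not pass (1.42, adjusted p = 0.059). When mid-pachytene replicate 2 was left out or leptotene-zygotene replicate 3, 2 genes of the list rose, and without leptotene-zygotene replicate 1, 3 rose. Majin, Terb1, Terf2 and Tinf2 did not pass without mid-pachytene replicate 2, nor without 1 or more of the other 4 arrays.

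Of 29 checkpoint and Fanconi anaemia genes 9 fell and 5 rose, and without mid-pachytene replicate 2 there were 0 falls (8 at an unadjusted p under 0.05) and 1 rise. Without leptotene-zygotene replicate 1 there were 3 rises. Mdc1, the adaptor that spreads damage signalling over the silenced sex chromosomes, stood at 10.10 and 10.62 in mid-pachytene cells, against 7.89, 9.26 and 8.17 in leptotene-zygotene cells, and rose by 1.92 (SE 0.38, adjusted p = 0.00178 from limma). Its partners in that process rose too, H2ax by 1.14 and Atr by 1.07. The related kinase Atm had 9.04 and 8.25, against 10.36, 10.74 and 10.42, and fell by 1.86 (SE 0.54, adjusted p = 0.0154, 0.174 without mid-pachytene replicate 2), and its target Chek1 fell by 1.57. The Fanconi genes were split, with Fancg rising by 1.62 and Brip1 and Fancf falling by 2.12 (floored change -1.64) and 1.88. H2ax, Atr, Chek1, Fancg, Brip1 and Fancf did not pass without mid-pachytene replicate 2. Fancg did not pass without 1 or more of the other 4 arrays.

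**Figure D5:**
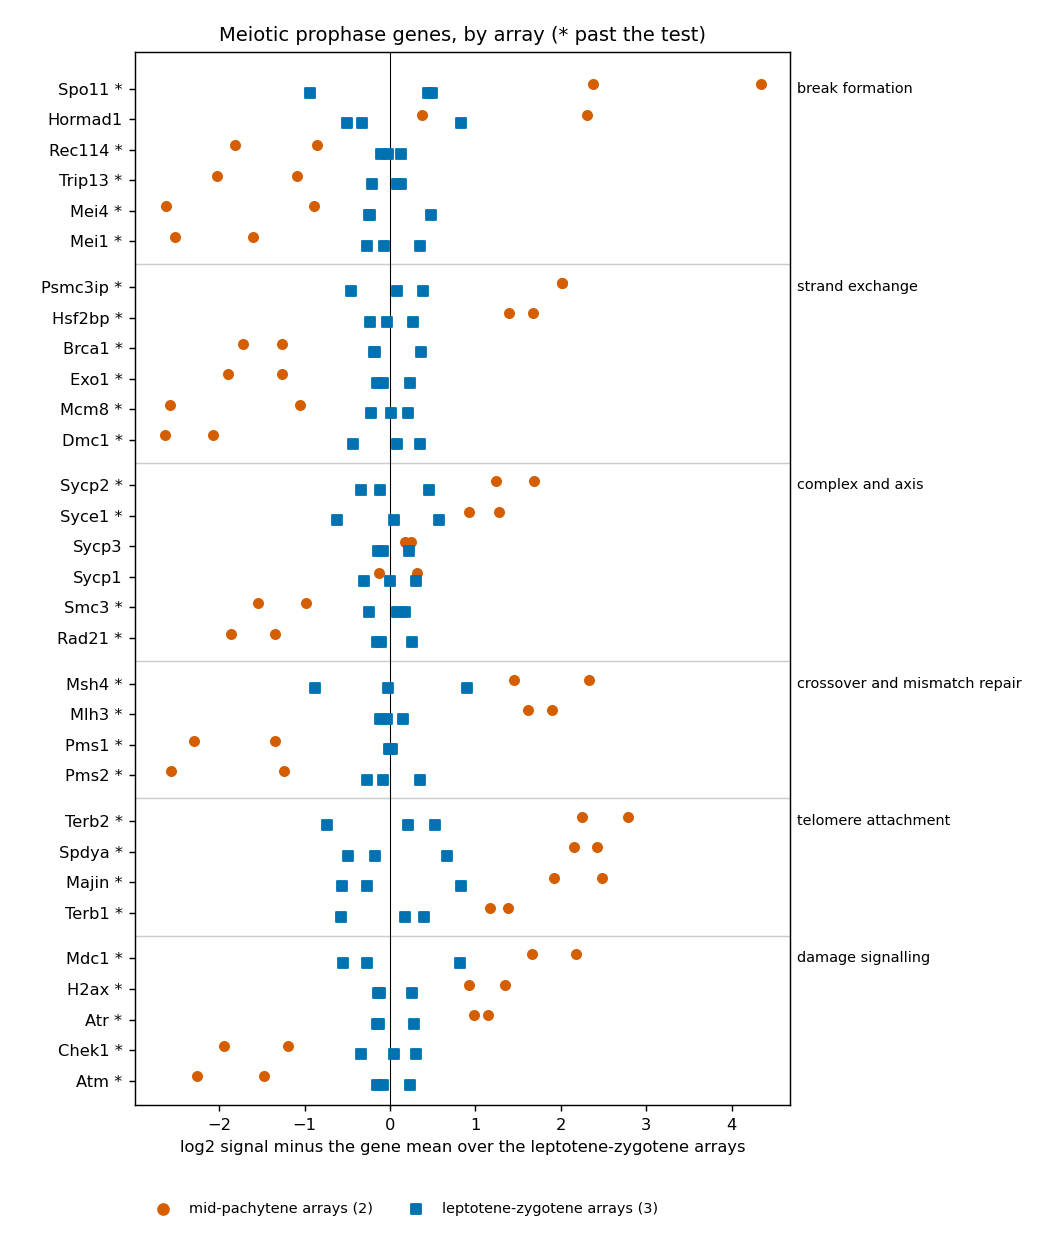
Log2 signal of meiotic genes, grouped by role, on the 2 mid-pachytene arrays (orange circles) and the 3 leptotene-zygotene arrays (blue squares), each relative to the gene's mean over the leptotene-zygotene arrays; asterisks mark genes past the test. Members of the same group lie on both sides of 0, as with Spo11 (3.36) and Mei1 (-2.06), and Sycp1 and Sycp3 lie near 0.

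Single genes were ranked by the floored change, and the changes printed are those of the fit, without the floor. The 12 largest autosomal rises were 1700006A11Rik (4.93), 4931408D14Rik (4.82), Fam181a (4.69), 4921525O09Rik (4.67), Elfn2 (4.65), Tmem30c (4.47), Aym1 (4.37), D130017N08Rik (4.31), 4930444F02Rik (4.27), Abca5 (4.23), 4933404O12Rik (4.05) and Zfp389 (4.04). For Fam181a the arrays read 10.85 and 10.65 in mid-pachytene cells, against 5.69, 5.58 and 6.92 in leptotene-zygotene cells. Abca5, a lipid transporter of the ABC family, had 9.56 and 11.82, against 6.18, 8.52 and 4.68, and the spread within each fraction was wide. The 12 largest falls were Sox11 (-3.41), Ascl2 (-3.21), Sema4f (-3.17), 4933427D06Rik (-3.11), Cbx8 (-3.02), Runx3 (-2.92), Nt5dc2 (-2.91), Tcea3 (-2.83), Ebf3 (-2.81), Tbx1 (-2.77), Selenom (-2.75) and Scube2 (-2.74). The floored changes that differed were 4.53 for Elfn2, 4.12 for Abca5, -3.27 for Sox11, -2.92 for Ascl2 and -2.75 for Cbx8. Sox11, Ascl2, Runx3, Ebf3 and Tbx1 encode transcription factors known from the nervous system, the trophoblast, blood, and the pharyngeal arches. Sox11 stood at 4.71 and 5.03 in mid-pachytene cells, against 7.81, 8.61 and 8.45 in leptotene-zygotene cells (SE 0.51, adjusted p = 0.000315 from limma). Abca5, Nt5dc2 and Selenom did not pass without mid-pachytene replicate 2, nor without 1 or more of the other 4 arrays.

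Other large families were near the shares of all genes or mixed. Zinc finger Zfp genes had 34 rises and 34 falls among 209 tested of 322, from Zfp389 (4.04) and Zfp608 (3.52) to Zfp790 (-2.77, floored -1.66) and Zfp469 (-2.27, floored -2.06). Solute carriers had 30 rises and 30 falls among 152 tested of 324, with Slc9b1, a sperm sodium-proton exchanger relative, rising by 3.07 and Slc6a9, a glycine transporter, falling by 2.68 (floored change -2.42). Of 33 kinesins 6 rose and 10 fell. Kif6 rose by 2.63 (floored change 2.11), and Kif5b, the conventional heavy chain, fell by 2.01. Among MAP kinases and their kinases 3 of 25 rose and 8 fell, and Mapk15, a kinase found at cilia, had 7.11 and 9.01 in mid-pachytene cells, against 3.57, 3.81 and 3.57 in leptotene-zygotene cells, and rose by 4.41, or by 3.06 with values under 5 raised to 5. Of 25 nucleoporins 2 rose and 7 fell, among them Seh1l by 2.38 and Nup210 by 1.98. Among translation initiation factors 7 of 35 fell and 1 rose. With mid-pachytene replicate 2 left out the Zfp genes had 12 rises and 8 falls, solute carriers 3 and 9, kinesins 2 and 4, MAP kinases 2 and 3, and initiation factors 0 falls (4 at an unadjusted p under 0.05). Without leptotene-zygotene replicate 1 the Zfp genes had 21 rises, solute carriers 19 and kinesins 3, and kinesins had 2 rises without mid-pachytene replicate 1. Kinesins had 3 rises and 6 falls without leptotene-zygotene replicate 2, and initiation factors 2 and 3 falls without leptotene-zygotene replicates 2 and 3. Slc9b1 and Slc6a9 did not pass without mid-pachytene replicate 2. Slc9b1 did not pass without 1 or more of the other 4 arrays.

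The autosomal changes were spread over all chromosomes. The share of tested probe sets that were higher in mid-pachytene cells was lowest on chromosome 16 (13.1%) and highest on chromosome 15, and the share that were lower lay between 14.7% (chromosome 13) and 20.5% (chromosome 6). The X chromosome stood apart: 0 of its 441 tested probe sets were higher, 273 (61.9%) were lower, and the median change was -1.68. Of 8 Y-linked probe sets 5 were lower and 0 higher. Of the 6563 probe sets called in all, 34.9% of those tested, 45.6% were higher, and this share was 58.3% without mid-pachytene replicate 2.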

How the data were processed

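The deposited table held 1 intensity per probe set and array on a linear scale, which the authors had background corrected, normalized and summarised with GC-RMA. Of 45037 probe sets 34945 named 1 gene through the platform annotation, 932 named several and 9160 none. Intensities were log2 transformed and fitted with limma 3.58.1 in R 4.3.3 (lmFit and eBayes) over all 20 arrays as 8 fractions, so that the fractions shared an estimate of the spread. Each gene was represented by the probe set, among those naming that gene alone, with the highest mean of both fraction means. Of the called autosomal genes 45 had another probe set called the opposite way. With the mean of all tested probe sets of a gene, 7 named genes lost their call. Tables and figures were made with Python 3.11.15, numpy 2.4.6, pandas 2.3.3 and matplotlib 3.10.9, and the fit was tested on simulated data. Genes were named by rule. They were the 12 largest rises and falls, and per list up to 5 called members in each direction. Per list up to 3 members that did not pass were named too, as were all autosomal centrins, tektins and tubulins. The members, lists and families were chosen with earlier results of these data known, and families were trimmed of unrelated symbols after their members were seen. Promoters came from RefSeq (GRCm38.p6, 32851 promoters of 27025 genes). Array projects were read from supplementary column headers, matched to arrays by equal signals. The alternatives were other normalizations, filters, a floor, blocks for project and replicate number, another variance model and leaving out each array.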

Additional observations from a re-analysis of the deposited data

How the results depend on the processing

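The replicates are few, and mid-pachytene replicate 2 carried most of the loss of calls. Of the genes named in the text 116 lost their call without it, 25 without mid-pachytene replicate 1, and 42, 35 and 18 without leptotene-zygotene replicates 1, 2 and 3. None of the 225 named genes with a call changed sign under any setting tried, and 13 of the 34 without a call did. Most named genes with a call were picked for large changes on these same arrays, which made a change of sign unlikely. With a single mid-pachytene array left, that array was assumed to vary like the other fractions. Over the leave-outs, probe sets called higher numbered 1323 to 3074 and lower 946 to 3269. Rises numbered 27 to 56 for the motile cilium, 21 to 32 for intraflagellar transport, 6 to 18 for the regulators, 5 to 11 for the piRNA pathway, 0 to 15 for spermatid genes and 3 to 11 for glycolysis. Falls numbered 6 to 23 for DNA replication, 12 to 25 for mitosis, 2 to 20 for ribosome biogenesis, 4 to 12 for chromatin, 4 to 13 for hedgehog, Notch and Wnt and 3 to 8 for apoptosis. With no filter on low values, which adjusts over more probe sets, 4 spermatid genes and 7 glycolysis genes rose and 9 ribosome biogenesis genes fell, and 32 named genes lost their call. When only the 5 arrays were fitted, 10 chromatin genes fell and 36 named genes lost their call. With the array project as a block 5391 probe sets were lower and 35 ribosome biogenesis genes fell, and the cause was not tested. The median change over the tested probe sets was -0.24, and 0.04 with no filter.

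Labelled replicate numbers did not pair the fractions by any stated litter or day. Deviations of the same-numbered arrays correlated at 0.598 and 0.487. The deviations of the 2 mid-pachytene arrays mirror each other, so the crossed pairs of replicates 1 and 2 read -0.487 and -0.598. The arrays of replicates 2 also shared an array project, so number and project cannot be told apart there. Once either of these arrays was left out, fraction and project could not be told apart. With the replicate number as a block 3846 probe sets were higher and 5000 lower, 30 ribosome biogenesis genes fell, and no named gene lost its call.

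Among the 13 genes that changed sign, the change of Dnaaf5 was 0.0269 with the replicate block, 0.0478 with the project block and 0.012 with centring on the tested probe sets, and that of Cetn3 was 0.0538, 0.0889 and 0.0214. With the replicate block Pcna had 0.0746, and with the project block Ift52 had -0.0638 and Sycp1 -0.12. Within the shared array project the changes were -0.0739 for Ift52, -0.0459 for Sycp3 and 0.63 for Tubb6, and 32 named genes moved by more than the replicate spread with no change of sign. Over the leave-outs the changes ranged from -0.14 to 0.73 for Aurka, from -0.22 to 0.85 for Ccnb2, from -0.13 to 0.036 for Dnaaf5, from -1.48 to 0.34 for Dnah11, from -0.0928 to 0.13 for Ift52, from -0.38 to 0.21 for Pcna, from -0.13 to 0.32 for Sycp1, from -1.79 to 0.20 for Tuba1a, from -0.95 to 0.0579 for Tuba4a and from -0.13 to 0.80 for Tubb2b. The cause was not tested.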
